A study of Mus musculus with 12 samples.

Results

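The MS4A genes described here are Ms4a1, Ms4a4b, Ms4a4c, Ms4a6b, Ms4a6c and Ms4a6d, which are 6 of the 13 genes named Ms4a among the 22561 genes of the count table. The 6 genes were chosen for their measured values across the 4 conditions of these same samples, so their differences between conditions are given as a description with intervals and without p-values. Follicular (FO) B cells were sorted as B220hi AA4.1− CD23+ CD21mid cells from the spleens of C57BL/6 mice aged 10 weeks, and their RNA was measured by bulk RNA barcoding (BRB) sequencing in 12 libraries. The 4 groups of 3 libraries were unstimulated cells, cells given IFNα, a type I interferon, cells given CpG, a DNA ligand of TLR9, and cells given CpG + IFNα, and stimulation lasted 12 h. No genetic change is named for any group. Culture of the unstimulated cells is not described in the sources used here, nor whether the 3 libraries of a group came from separate mice. The deposited barcode list numbers the wild-type (WT) samples 1 to 3 in every condition, and these numbers may stand for mice. Therefore time in culture and stimulus cannot be told apart in a comparison with unstimulated cells, and p-values measure the spread between libraries, which may be technical.

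MS4A proteins span the membrane several times and sit in the plasma membrane or in endosomes, where several of them join larger receptor complexes. The best known is CD20, the product of Ms4a1, which is found on B cells from the pre-B stage until they become plasma cells, associates with the B cell receptor and is the target of therapeutic antibodies such as rituximab. The Ms4a4 and Ms4a6 genes of the mouse arose by repeated duplication, so that neighbouring copies remain similar in sequence. Ms4a4b is best known from T cells and Ms4a6d from macrophages, and the roles of the other copies in B cells are less well described.

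The 6 genes lay within 355.2 kb of chromosome 19 (GRCm38, positions from GENCODE M21). Ms4a1, on the minus strand at chr19:11249675-11266241, stood apart from the others. Ms4a4c (chr19:11404770-11427246), Ms4a4b (chr19:11443553-11467055), Ms4a6c (chr19:11469366-11482192) and Ms4a6b (chr19:11516512-11531256) followed on the plus strand, and Ms4a6d (chr19:11586604-11604849) lay on the minus strand beyond them. The midpoints of these 5 genes were 158.1, 197.3, 217.8, 265.9 and 337.8 kb from that of Ms4a1, in the order named.

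The bases before the start of transcription are shown for the 4 members that matched an entry in the RefSeq promoter set (GRCm38.p6), because they show which copies share their upstream sequence. No entry matched Ms4a1 or Ms4a6d. The RefSeq starts of all 4 lie inside the GENCODE genes, at chr19:11443558 for Ms4a4b, 11407661 for Ms4a4c, 11518559 for Ms4a6b and 11469368 for Ms4a6c. Those of Ms4a4c and Ms4a6b lie furthest from the GENCODE start. Each run holds the 250 bases before the start site on the plus strand, at chr19:11443308-11443557 for Ms4a4b, chr19:11407411-11407660 for Ms4a4c, chr19:11518309-11518558 for Ms4a6b and chr19:11469118-11469367 for Ms4a6c. For Ms4a4b and Ms4a4c, capitals mark the longest run of bases identical between the pair, which was 20 bases long. For Ms4a6b and Ms4a6c, capitals mark a match to GAAANNGAA, a motif of interferon regulatory factors. The longest identical run of that pair, which is not in capitals, was 48 bases long. It lay 118 to 71 bases before the start of Ms4a6b and 49 to 2 bases before that of Ms4a6c.
Ms4a4b: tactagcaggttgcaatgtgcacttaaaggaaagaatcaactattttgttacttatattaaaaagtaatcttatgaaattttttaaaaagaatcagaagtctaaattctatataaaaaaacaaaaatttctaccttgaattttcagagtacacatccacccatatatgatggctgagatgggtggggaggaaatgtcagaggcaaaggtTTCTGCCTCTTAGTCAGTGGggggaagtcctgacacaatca
Ms4a4c: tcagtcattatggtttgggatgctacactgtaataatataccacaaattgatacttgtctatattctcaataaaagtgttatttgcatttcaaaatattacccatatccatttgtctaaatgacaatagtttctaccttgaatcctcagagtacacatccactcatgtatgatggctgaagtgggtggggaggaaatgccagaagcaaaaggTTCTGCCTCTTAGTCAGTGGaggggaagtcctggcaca
Ms4a6b: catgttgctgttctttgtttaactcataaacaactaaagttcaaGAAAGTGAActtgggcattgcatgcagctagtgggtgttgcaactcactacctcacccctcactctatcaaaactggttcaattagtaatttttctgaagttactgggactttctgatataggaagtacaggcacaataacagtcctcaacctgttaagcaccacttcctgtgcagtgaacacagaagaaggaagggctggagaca
Ms4a6c: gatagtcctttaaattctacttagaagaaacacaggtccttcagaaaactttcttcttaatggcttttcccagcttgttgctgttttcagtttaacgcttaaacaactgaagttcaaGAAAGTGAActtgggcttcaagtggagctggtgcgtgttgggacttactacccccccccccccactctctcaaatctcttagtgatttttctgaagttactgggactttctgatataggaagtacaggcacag

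Ms4a4b and Ms4a4c were 89.8% identical over 127 aligned bases of these windows, and Ms4a6b and Ms4a6c 89.4% over 170 bases, whereas no alignment between the 2 groups of copies was longer than 21 bases. The 9 bases GAAAGTGAA began 206 bases before the start of Ms4a6b and 133 bases before that of Ms4a6c. GAAANNGAA was present on either strand in 7.13% of 32851 promoter windows of the same length. The core of the interferon-stimulated response element, which is GAAANNGAA with 1 more A at its end, was in none of the 4 windows and in 2.98% of all of them. TTCNNNGAA, the gamma-activated sequence, a core of NF-κB sites (GGGA and TTCC, 2 bases apart) and the composite motif of ETS proteins and interferon regulatory factors (GGAA and GAAA, 2 bases apart) were also in none of the 4, and in 7.02%, 1.21% and 2.3% of all windows. Both strands were searched for each motif. A match is a match of letters only, and factor binding was not measured.

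The libraries held between 922450 and 2923865 UMI counts. The median total was lowest in unstimulated cells (1098670, range 922450 to 1103064) and highest with CpG + IFNα (1900101, range 1884673 to 2923865). Totals overlapped between groups, as the IFNα libraries began at 1067324 and the CpG libraries reached 1985810. Levels are given as normalized CPM, that is counts divided by library size and scaled by the trimmed mean of M values (TMM), and are therefore relative to the RNA of the whole library. No library was a copy of another, as the chi-square divided by its degrees of freedom was 1.90 to 6.73 over the 12 pairs within groups. The sorted identity was checked against 8 B cell markers, whose summed level ran from 7810 to 8440 CPM without stimulation, from 6920 to 7540 after IFNα, from 1640 to 1820 after CpG and from 1310 to 1450 after CpG + IFNα. In CpG against unstimulated cells, 7 of these 8 markers and all 4 follicular markers fell, where 25.5% of all genes were called lower. With IFNα alone none of the 8 was called, but 2 of the 4 follicular markers fell, against 4.07% of all genes. These were Fcer2a, which encodes CD23, from 1227 to 244 CPM (log2 fold change −2.34), and Cr2, which encodes CD21, from 412.5 to 81.52 CPM (−2.38). In bulk RNA, fewer cells of a type and less RNA per cell cannot be told apart.

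Ms4a1 was the most abundant MS4A gene of unstimulated cells. Its level was 1669, 1898 and 1868 CPM in the 3 unstimulated libraries (1812 ± 124.4, mean ± SD, n = 3) and 1993, 1743 and 1998 CPM with IFNα (1911 ± 145.9). With CpG it was 302.7, 310.1 and 339 CPM (317.2 ± 19.18), and with CpG + IFNα 280.4, 317.4 and 326.9 CPM (308.2 ± 24.56). The libraries thus formed a high pair of groups without CpG and a low pair with CpG, and within each pair the replicates overlapped.

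CD20 mRNA was 5.7-fold lower with CpG than in unstimulated cells, a log2 fold change of −2.51 with a 95% interval from −2.74 to −2.28. With CpG + IFNα the log2 fold change against unstimulated cells was −2.55 (−2.79 to −2.32), and against IFNα alone −2.63 (−2.86 to −2.40). IFNα without CpG gave a log2 fold change of 0.08 (−0.14 to 0.29) and IFNα added to CpG −0.04 (−0.27 to 0.19). The interaction, meaning the log2 difference made by IFNα in cells given CpG less that in cells not given it, was −0.12 (−0.43 to 0.20) on the log2 scale for Ms4a1. All 3 intervals include 0, and the differences made by IFNα lay within −0.27 to 0.29.

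**Figure D1:**
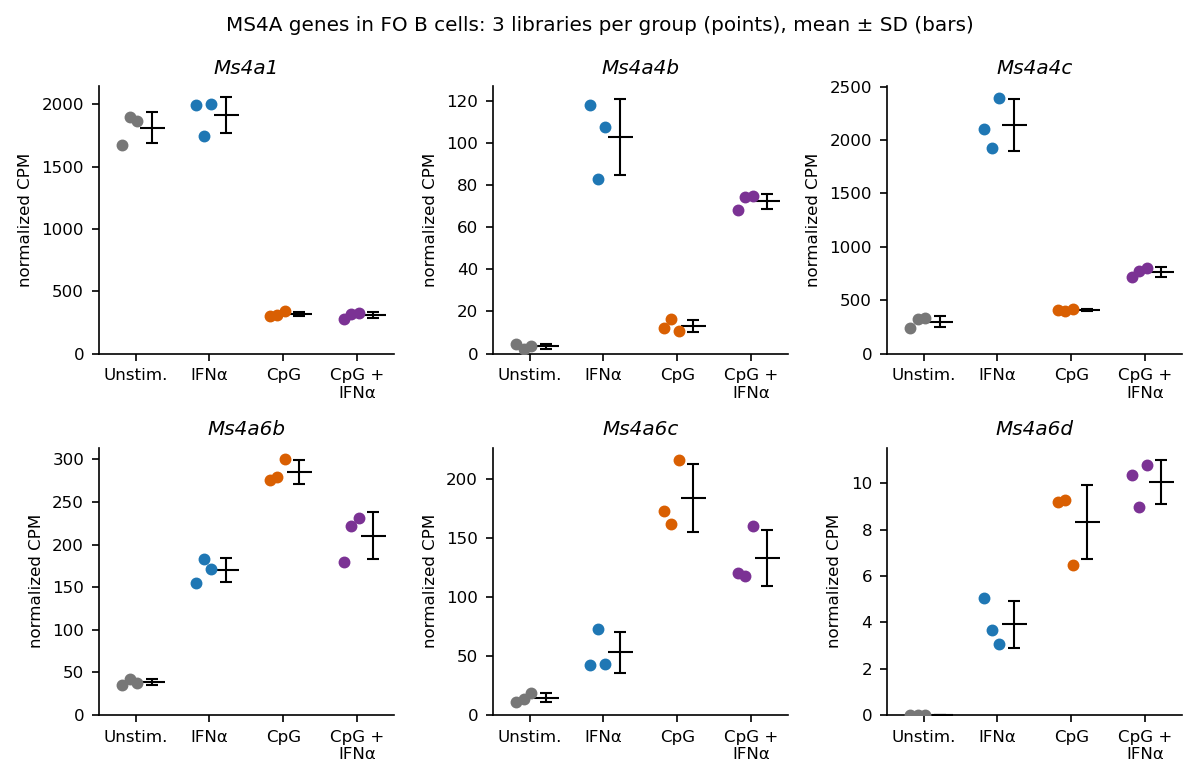
Normalized CPM of the 6 MS4A genes in each library (points, 3 per group) with the mean and SD of each group (bars), on linear axes that start at 0 and differ between panels. Ms4a1 was low in both groups with CpG, Ms4a4b and Ms4a4c were highest with IFNα, and Ms4a6b and Ms4a6c were highest with CpG.

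Ms4a4b was near the limit of detection without stimulation, at 4.55, 2.139 and 3.53 CPM, below the cutoff of the filter on low counts (6.58 CPM) in each unstimulated library. With IFNα it stood at 118.1, 82.7 and 107.6 CPM (102.8 ± 18.16), with CpG at 12.28, 16.39 and 10.48 CPM (13.05 ± 3.03), and with CpG + IFNα at 68.18, 74.17 and 74.52 CPM (72.29 ± 3.562). No library of any group overlapped with those of another, and the order from low to high was unstimulated, CpG, CpG + IFNα and IFNα.

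The log2 fold change of Ms4a4b was 4.84 (SE 0.28) with IFNα, a 28.6-fold higher level, and 1.86 (SE 0.40) with CpG. With CpG + IFNα it was 4.35 (SE 0.28) against unstimulated cells and 2.50 (SE 0.19) against CpG. Against IFNα alone, CpG + IFNα was lower by a log2 fold change of −0.49 (95% interval −0.78 to −0.20). With its similar copies Ms4a4c and Ms4a4d summed with it, the log2 fold change was 0.48 with CpG and 1.0 when IFNα was added to CpG, neither of which was called, and −1.42 for CpG + IFNα against IFNα alone, which was called. Without summing, Ms4a4b had the largest difference among the 6 genes when IFNα was added to CpG.

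Ms4a4c was the second most abundant member without stimulation and the most abundant with IFNα. Its level was 241.1, 318.8 and 334.4 CPM in unstimulated cells (298.1 ± 49.95) and 2104, 1923 and 2399 CPM with IFNα (2142 ± 240.6). It was 404, 399.9 and 413.9 CPM with CpG (405.9 ± 7.186) and 716.8, 769.3 and 805.3 CPM with CpG + IFNα (763.8 ± 44.54). Again the 4 groups did not overlap, in the same order as for Ms4a4b.

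In Ms4a4c, IFNα alone gave a log2 fold change of 2.85 (SE 0.13; 7.19-fold) and CpG alone 0.45 (SE 0.12; 95% interval 0.20 to 0.70), which was under the threshold of 1. IFNα added to CpG gave 0.91 (SE 0.12), also under that threshold. CpG + IFNα was 2.56-fold higher than unstimulated cells and 2.8-fold lower than IFNα alone. The interaction was −1.93 (SE 0.17) for Ms4a4c and −2.34 (SE 0.42) for Ms4a4b, so that on the log2 scale IFNα made a smaller difference to both genes in the presence of CpG than in its absence.

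The Ms4a6 genes were higher with either stimulus and showed another order. Ms4a6b was 35.49, 42.79 and 37.94 CPM in unstimulated cells (38.74 ± 3.712), 155.4, 183 and 171.7 CPM with IFNα (170 ± 13.9), 275.1, 279.4 and 300.5 CPM with CpG (285 ± 13.63) and 178.9, 221.5 and 230.8 CPM with CpG + IFNα (210.4 ± 27.64). The CpG libraries were the highest. Those with CpG + IFNα lay below all of them and overlapped with those of IFNα, of which 1 library, at 183 CPM, exceeded the lowest of CpG + IFNα.

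Ms4a6b had a log2 fold change of 2.14 (SE 0.15) with IFNα, 2.88 (SE 0.15) with CpG and 2.45 (SE 0.15) with CpG + IFNα, each against unstimulated cells. Added to CpG, IFNα gave a log2 fold change of −0.44 (95% interval −0.66 to −0.21), opposite in sign to its difference without CpG. The interaction was −2.58 (SE 0.19).

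Ms4a6c was 10.92, 13.91 and 18.53 CPM without stimulation (14.45 ± 3.835) and 42.38, 72.97 and 43.5 CPM with IFNα (52.95 ± 17.35), where replicate 2 was the high library. It was 172.5, 161.8 and 216.2 CPM with CpG (183.5 ± 28.79) and 120.6, 118 and 160.3 CPM with CpG + IFNα (133 ± 23.75). The 4 groups did not overlap, although the highest library with CpG + IFNα (160.3 CPM) lay just below the lowest with CpG (161.8 CPM).

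The log2 fold change of Ms4a6c against unstimulated cells was 1.90 (SE 0.27) with IFNα, 3.66 (SE 0.23; 12.6-fold) with CpG and 3.18 (SE 0.23) with CpG + IFNα. Among the 5 members with counts in every group, it was the 1 with the largest difference between CpG and unstimulated cells. IFNα added to CpG gave −0.48 (95% interval −0.77 to −0.19), as in Ms4a6b a lower level, and CpG + IFNα was 2.43-fold higher than IFNα alone. The interaction was −2.38 (SE 0.31).

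Ms4a6d was at 0 counts in all 3 unstimulated libraries. It had 5, 6 and 4 counts with IFNα (3.915 ± 1.023 CPM), 15, 13 and 13 with CpG (8.322 ± 1.587 CPM), and 19, 26 and 21 with CpG + IFNα (10.04 ± 0.953 CPM). Against the limit that a count of 0 allows (3 counts per library), it was at least 1.37-fold higher with IFNα, at least 2.91-fold higher with CpG and at least 3.51-fold higher with CpG + IFNα, limits that cover counting error only. It reached the filter on low counts only in 2 libraries with CpG and 3 with CpG + IFNα. CpG + IFNα against CpG gave a log2 fold change of 0.28 (SE 0.32; 95% interval −0.37 to 0.93) with overlapping libraries, and against IFNα 1.36 (SE 0.40).

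**Figure D2:**
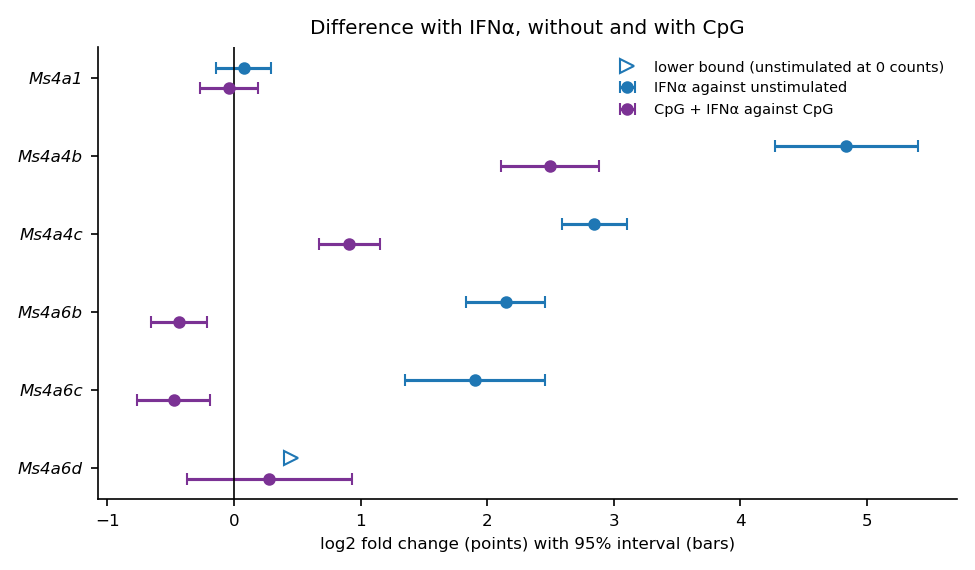
Log2 fold change of each member with IFNα against unstimulated cells (blue) and with CpG + IFNα against CpG (purple), with 95% intervals; the open triangle for Ms4a6d is a lower bound of 0.45, since unstimulated cells had 0 counts. Ms4a6b and Ms4a6c lay above 0 without CpG (2.14 and 1.90) and below 0 with CpG (−0.44 and −0.48).

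A gene was called where edgeR's quasi-likelihood test over 9431 genes gave an adjusted p below 0.1 and the log2 fold change exceeded 1 in either direction. With IFNα, 5 members were called higher and none lower (all but Ms4a1), where 4.56% of all genes tested were called higher and 4.07% lower. With CpG, 4 members were called higher and 1 lower, against 20.1% and 25.5% of all genes. With CpG + IFNα against unstimulated cells these were 5 and 1, against 20.3% and 25.6%. When IFNα was added to CpG, only Ms4a4b was called, and it was higher, against 2.95% higher and 2.01% lower of all genes. When CpG was added to IFNα, Ms4a6c and Ms4a6d were called higher and Ms4a1 and Ms4a4c lower, against 18.7% and 25.5%. In the interaction, 5 members were called lower and none higher, against 3.17% and 3.09%. With similar copies summed, no member was called when IFNα was added to CpG, and the calls of Ms4a4b with CpG and of Ms4a6c and Ms4a6d when CpG was added to IFNα were lost. The members were picked from these comparisons, so nothing is read from their counts. For Ms4a6d every fitted value against unstimulated cells, the interaction included, rests on a group at 0 counts.

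**Figure D3:**
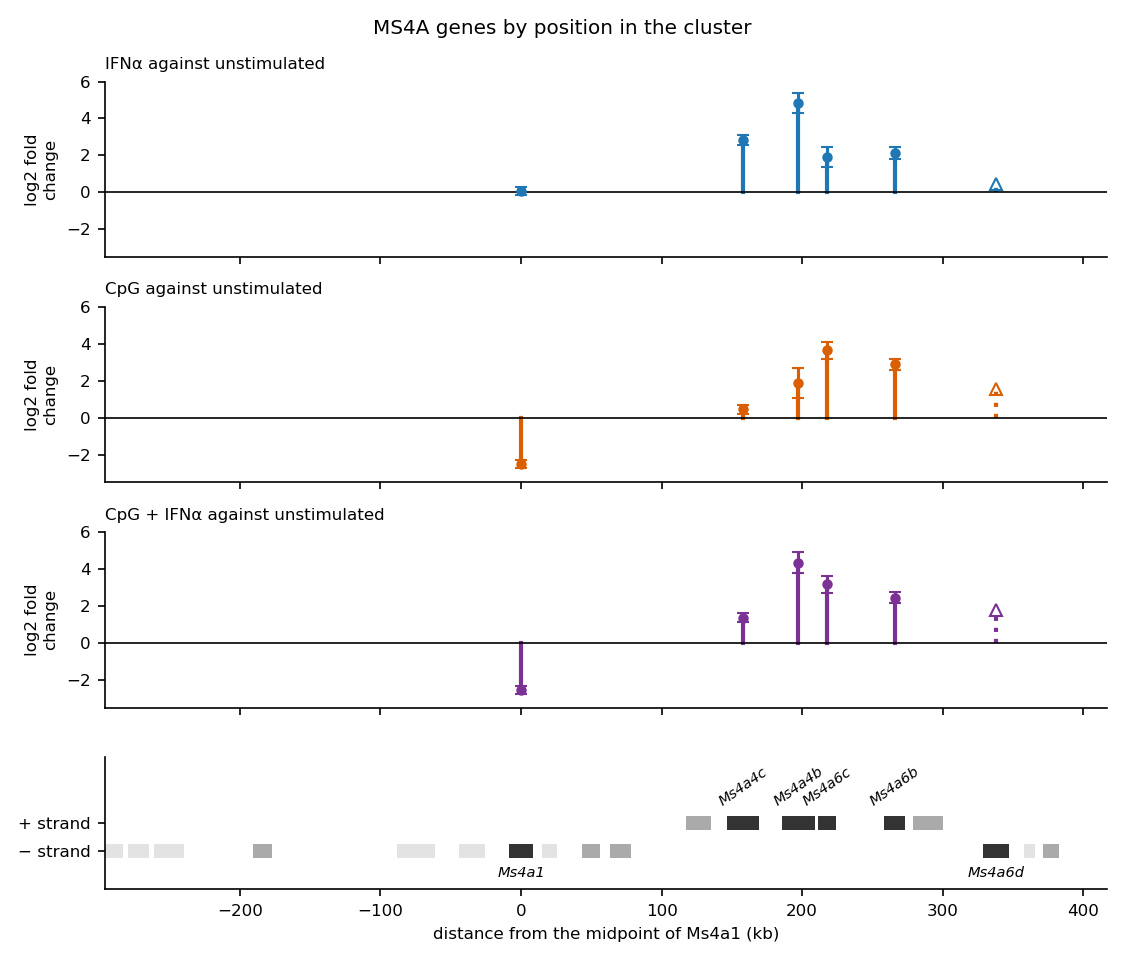
Log2 fold change of the 6 genes against unstimulated cells (upper panels, with 95% intervals; dotted lines and open triangles are lower bounds for Ms4a6d) by distance in kb from the midpoint of Ms4a1. In the lowest panel the 19 genes named Ms4a in GENCODE M21 are drawn to scale by strand (Ms4a20, which has another name there, is not drawn), members black, other genes of the count table mid grey and the rest light grey. Only Ms4a1 lay below 0 with CpG, and the 5 genes from 158.1 to 337.8 kb lay above it with each stimulus.

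The makeup of the MS4A transcripts therefore differed between the conditions. Summed over the 13 genes, the family made up 2167 ± 177.5 CPM in unstimulated cells, 4385 ± 358.9 after IFNα, 1213 ± 63.75 with CpG and 1498 ± 117.4 after CpG + IFNα (mean ± SD, n = 3 each). Ms4a1 gave 83.67 ± 1.286% of these counts without stimulation, 43.61 ± 1.415% after IFNα, 26.14 ± 0.3535% after CpG and 20.57 ± 0.3945% after CpG + IFNα. Ms4a4c took the largest share in each stimulated group, at 48.77 ± 1.738% after IFNα, 33.49 ± 1.171% after CpG and 51.03 ± 1.037% after CpG + IFNα. Ms4a6b and Ms4a6c together were a minor part without CpG, with means of 1.789% and 0.6622% in unstimulated cells, and reached 23.49% and 15.07% with CpG. Counts come from the 3′ end of transcripts and do not scale with their length, so shares compare molecules.

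**Figure D4:**
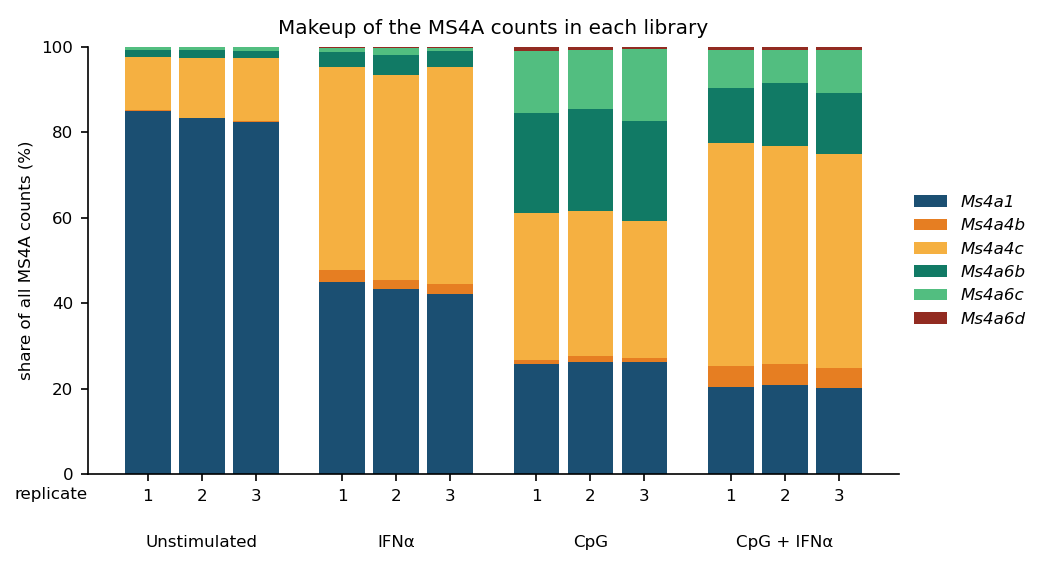
Share of all MS4A counts (%, stacked bars from 0 to 100) given by each of the 6 members in the 12 libraries. Ms4a1 gave between 82.53% and 85.06% of the counts in unstimulated libraries and between 20.31% and 21.02% with CpG + IFNα.

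The remaining MS4A genes of the table were at or near 0. Ms4a4d, the copy next to Ms4a6b, had 2, 3 and 4 counts with IFNα, 0 in each unstimulated library, 0, 0 and 1 with CpG and 1, 0 and 2 with CpG + IFNα. Ms4a4a had at most 1 count in any library, and Ms4a7 and Ms4a14 had 1 count each over all 12 libraries. Ms4a3, Ms4a8a and Ms4a20 had none. The related genes Tmem176b and Tmem176a, which encode proteins of the same superfamily, were low in every group. Tmem176b had 6, 8 and 7 counts in unstimulated libraries, 7, 3 and 6 with IFNα, 1 in each with CpG, and 0, 1 and 3 with CpG + IFNα, and Tmem176a at most 3 in any library. Tmem176b was thus at 5.46 to 8.557 CPM in unstimulated libraries and at 0.4992 to 0.7128 CPM with CpG, without overlap. None of these genes passed the filter on low counts, so they were not tested.

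Similar copies set a limit on how reads could be assigned. In the longest annotated transcripts (GENCODE M21), Ms4a4b and Ms4a4c were 91.4% identical over 1648 aligned bases, Ms4a6b and Ms4a6c 90.0% over 662 bases, Ms4a6b and Ms4a6d 92.4% over 448 bases, and Ms4a6c and Ms4a6d 83.2% over 898 bases. Ms4a1 aligned to no other member over more than 61 bases. Of the windows of 81 bases in the last 500 bases of their transcripts, from which 3′ counts mainly come, Ms4a4c shared 4.1% exactly with Ms4a4b, Ms4a4b 2.08% with Ms4a4c, Ms4a6c 1.9% with Ms4a6b, Ms4a6b 0.0644% with Ms4a6d, and Ms4a1 and Ms4a6d 0% with any MS4A gene. In windows of 30 bases the shares found in any other MS4A gene were 21.7% for Ms4a4c, 13.4% for Ms4a6c, 11.8% for Ms4a6b, 4.49% for Ms4a4b and 0% for Ms4a1 and Ms4a6d. How the counting treated reads that map to several places is not given in the sources used here, so a part of the counts of each copy is uncertain.

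The ratio of counts between copies was not the same in every condition. Per 100 counts of Ms4a4c, Ms4a4b had 0.671 to 1.89 in unstimulated cells, 4.3 to 5.61 with IFNα, 2.53 to 4.1 with CpG and 9.25 to 9.64 with CpG + IFNα. Per 100 counts of Ms4a6b, Ms4a6c had 30.8 to 48.8 in unstimulated cells and 25.3 to 39.9 with IFNα, which overlapped, and 57.9 to 71.9 with CpG and 53.3 to 69.5 with CpG + IFNα, which overlapped with each other and lay above the groups without CpG. Ms4a6d had 1.78 to 3.25 counts per 100 of Ms4a6b with IFNα, 2.16 to 3.35 with CpG and 4.05 to 5.79 with CpG + IFNα.

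**Figure D5:**
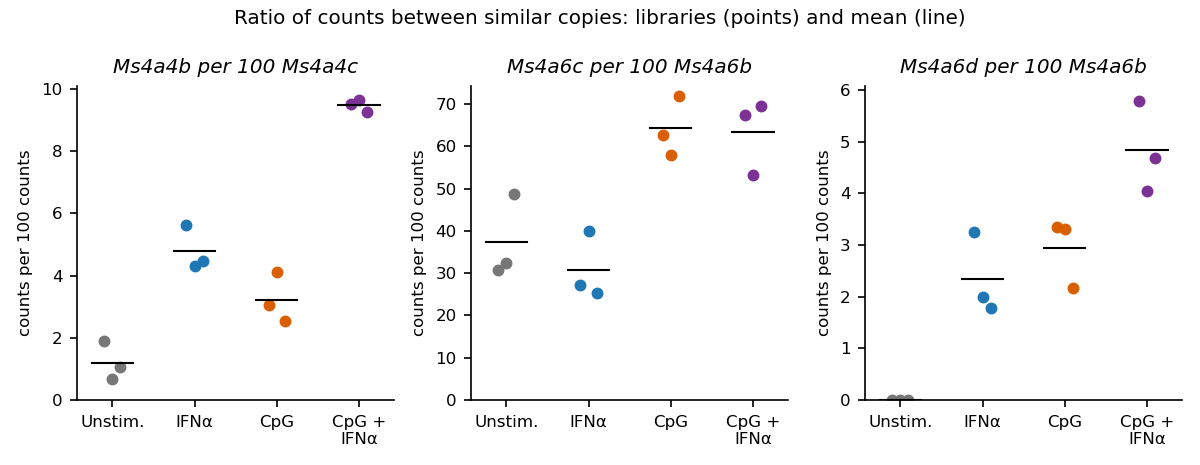
Counts of a copy per 100 counts of its similar neighbour in each library (points) with the group mean (line), on linear axes that start at 0. The ratio of Ms4a4b to Ms4a4c was between 0.671 and 1.89 in unstimulated cells and between 9.25 and 9.64 with CpG + IFNα, and that of Ms4a6c to Ms4a6b was higher in both groups with CpG.

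Counts summed over similar copies do not depend on how the counted reads were divided among them. Reads left out for mapping to several places, or given to a gene outside the sum, would still be missing from it. The sum of Ms4a4b, Ms4a4c and Ms4a4d was 301 ± 49.1 CPM in unstimulated cells, 2250 ± 252 after IFNα, 419 ± 4.98 with CpG and 837 ± 48.1 after CpG + IFNα, and followed Ms4a4c. Its log2 fold change was 2.9 with IFNα, 0.48 with CpG and 1.0 when IFNα was added to CpG. The sum of Ms4a6b, Ms4a6c and Ms4a6d was 53.2 ± 5.88, 227 ± 29.4, 477 ± 40.3 and 353 ± 46.2 CPM in the same order. Its log2 fold change was 2.10 with IFNα, 3.17 with CpG and −0.43 when IFNα was added to CpG, and its interaction was −2.54 (SE 0.19) where that of the Ms4a4 sum was −1.9 (SE 0.17).

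Genes on the opposite strand overlapped 4 members: 4930526L06Rik at Ms4a1, Gm5692 at Ms4a4c, Gm19261 at Ms4a6b and BE692007 at Ms4a6c. Exact matches to the overlapping gene covered 50.0% of the windows of 81 bases in the last 500 bases of the Ms4a6c transcripts and 0% in those of the other members. The strand setting of the counting is not given in the sources used here, so reads of Ms4a6c and BE692007 cannot be told apart with certainty. BE692007 was at 83.38 ± 13.07 CPM in unstimulated cells, 165.9 ± 22.53 after IFNα, 47.79 ± 6.831 with CpG and 48.51 ± 11.13 after CpG + IFNα, an order unlike that of Ms4a6c.

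Among the other genes near the cluster, 18 were tested between its outermost genes or within 500 kb of them. With IFNα, 2 of the 18, BE692007 and Gm8369, were called higher and none lower, against 4.56% and 4.07% of all genes. Gm8369, a coding gene at chr19:11485938-11512577 between Ms4a6c and Ms4a6b, stood at 232.6 ± 26.96 CPM in unstimulated cells, 506.8 ± 60.44 after IFNα, 45.93 ± 11.48 with CpG and 74.46 ± 7.336 after CpG + IFNα. Its log2 fold change was 1.13 with IFNα and −2.36 with CpG, whereas those of the members on either side of it were above 0 in both comparisons. With CpG against unstimulated cells, 6 of the 18 were called higher and 3 lower, where 20.1% and 25.5% of all genes were. With CpG + IFNα against unstimulated cells, 4 of the 18 rose (Tmem216, Slc15a3, Prpf19 and Ccdc86) and 3 fell (Tkfc, AW112010 and Gm8369), shares near or below the 20.3% and 25.6% of all genes. When IFNα was added to CpG, 1 of the 18 was called higher and 1 lower, against 2.95% and 2.01% of all genes. Slc15a3, a transporter of histidine and small peptides in endosomes, rose from 27.51 ± 2.65 to 62.53 ± 8.471 CPM (log2 fold change 1.21, SE 0.17). Tkfc, a kinase of dihydroxyacetone, fell with a log2 fold change of −1.87 (SE 0.57) from 4.561 to 1.099 CPM. Tkfc was below the filter cutoff of 6.58 CPM in each library of both groups, at 8, 6 and 9 counts with CpG and 1, 5 and 2 with CpG + IFNα. When CpG was added to IFNα, 5 of the 18 were called higher and 5 lower, against 18.7% and 25.5% of all genes.

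The genes around CD20 at the membrane were read from a list of 20 genes of the B cell receptor, its co-receptors and tetraspanins. With CpG, 12 of the 20 were called lower and none higher, where 25.5% and 20.1% of all genes were, with a median log2 fold change of −1.41 where the median over all genes was −0.03. Cd79b, a signalling chain of the B cell receptor, went from 2029 to 224.8 CPM (log2 fold change −3.17, SE 0.13). Ighd, the heavy chain of IgD, had a log2 fold change of −1.60, and Ighm, the heavy chain of IgM, of −0.88, which did not reach the threshold of 1. With IFNα alone, 2 of the 20 were called lower and none higher, against 4.07% and 4.56% of all genes, and Cd79b had a log2 fold change of 0.19 beside the 0.08 of Ms4a1. When IFNα was added to CpG, 1 of the 20 was called lower and none higher, against 2.01% and 2.95% of all genes (median −0.20).

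The list of 14 regulators of Ms4a1 held transcription factors known to act on the CD20 promoter or in B cell identity. With CpG, 8 of the 14 were called lower and none higher, where 25.5% and 20.1% of all genes were (median −1.46, and −0.03 over all genes). Spib, an ETS factor, had a log2 fold change of −2.67 (SE 0.13), Ebf1 of −1.70 and Pou2af1, the co-activator of the octamer factors, of −1.77. Pax5, Irf8 and Pou2f2 had log2 fold changes of −0.63, −0.08 and −0.68 and were not called. With IFNα alone, Irf4 was the 1 gene called of the 14 (lower, −1.10), against 4.07% of all genes called lower. Its level was 256.6, 135.8 and 170.3 CPM in unstimulated libraries, where replicate 1 was the high library, and 86.77, 82.7 and 95.39 CPM with IFNα. Whether Irf4 was called without that high library is not given here. When IFNα was added to CpG, Pou2af1 was the 1 called (lower, −1.03), against 2.01%.

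The list of 30 interferon-stimulated genes gave the response to IFNα in the same libraries. With IFNα alone 29 rose, with a median log2 fold change of 4.13, where 4.56% of all genes were called higher. With CpG alone 26 were called lower and none higher (median −2.30), against 25.5% and 20.1% of all genes. When IFNα was added to CpG, 29 rose again (median 4.50), against 2.95% of all genes. Irf7, a regulator of interferon responses, had log2 fold changes of 4.83 with IFNα and 4.70 when IFNα was added to CpG. In the interaction 6 of the 30 were called higher and none lower (median 0.57), against 3.09% and 3.17% of all genes. When CpG was added to IFNα, 20 of the 30 were called lower and none higher (median −1.56), against 25.5% and 18.7% of all genes. Bst2 of the list had log2 fold changes of 0.73 with CpG and −0.76 in the interaction and was called in neither. Beside these, Ms4a4b, Ms4a4c, Ms4a6b and Ms4a6c had log2 fold changes of 0.45 to 3.66 in CpG against unstimulated cells. Theirs were −2.58 to −1.93 in the interaction, and −0.49, −1.49, 0.30 and 1.28 (in that order) when CpG was added to IFNα. The comparisons with unstimulated cells share the same control libraries.

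Markers of other cell types were read beside the members, since MS4A genes are also expressed by T cells, macrophages and mast cells. Of 13 T cell markers, 9 were in the table and none passed the filter; their summed level was 2.65 to 7.49 CPM in unstimulated cells, 1.01 to 5.47 with IFNα, 2 to 3.07 with CpG and 2.06 to 4.48 with CpG + IFNα, with Cd3g and Cd8a at 0 in all groups. Of 11 myeloid markers, 10 were in the table, with sums of 17.6 to 47.1, 594 to 788, 2.85 to 7.98 and 14.8 to 33.4 CPM. The level with IFNα came from Ly6c2, at 587 to 775 CPM, while Lyz2, Csf1r, Cd14, Fcgr1, Itgam and S100a8 were at 0 in all 3 libraries with IFNα. Adgre1, which encodes F4/80, had 1, 3 and 1 counts in unstimulated libraries, 8, 11 and 17 with IFNα (9.245 ± 3.302 CPM), 1, 1 and 4 with CpG and 0 in each with CpG + IFNα, and was not tested. Without Ly6c2, the other 9 summed to 6.18 to 28.9, 7.3 to 13, 0.713 to 3 and 0.514 to 1.64 CPM in the same order of groups. The 5 NK cell markers of the table summed to at most 4.55 CPM in any library, and the 2 mast cell and basophil markers to at most 1.53 CPM. The 5 markers of plasmacytoid dendritic cells summed to 36.4 to 40.6, 37.4 to 51.7, 9.98 to 22.1 and 20.7 to 24.7 CPM, with Siglech at 0 in every library. Of the 2 tested, Pacsin1 went from 31.5 CPM in unstimulated cells to 33.69 after IFNα, 1.455 after CpG and 1.3 after CpG + IFNα. Cox6a2 went from 0.3565 to 4.019, 9.59 and 18.39 CPM, an order of groups like that of Ms4a6d. Cox6a2 was called higher than in unstimulated cells in each of these 3 groups. The part of these markers in the levels of the members was not tested.

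The genes whose log2 CPM followed each member most closely over the 12 libraries were listed as a description, since libraries of a group share their condition. Ms4a1 was followed most closely by Wipf1, Limd2 and Fcmr, each with a Pearson r of 0.997, Fcmr being the receptor for IgM. These r were 0.583, 0.573 and 0.755 within the 6 libraries without CpG and 0.739, 0.749 and 0.587 within the 6 with it. Ms4a4b was followed by Psme1, a subunit of the proteasome activator PA28 (r = 0.979), Xrn2, a nuclear exoribonuclease (r = 0.976), and Bst2, the antiviral tetherin (r = 0.964). Ms4a4c was followed by Nt5c3, a pyrimidine nucleotidase (r = 0.993), Mitd1 (r = 0.972) and 9330175E14Rik (r = 0.969). These 6 correlations were also 0.899 or more within the 6 libraries with CpG and within the 6 without it.

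Ms4a6b was followed by Aldoa, the aldolase of glycolysis (r = 0.969), Msantd4 (r = 0.959) and Bola1 (r = 0.956), and Ms4a6c by Txn1, thioredoxin (r = 0.978), Mrpl18, a mitochondrial ribosomal protein (r = 0.978), and Prdx1, a peroxiredoxin (r = 0.974). Ms4a6d was followed by Tubb4b, a beta tubulin (r = 0.986), Tomm70a, an import receptor of mitochondria (r = 0.983), and Cdca4 (r = 0.977). Within the 6 libraries with CpG these correlations were lower, and for Ms4a6c they were −0.287 with Txn1 and −0.0464 with Prdx1. Between members, r over the 12 libraries was 0.889 for Ms4a4b and Ms4a4c and 0.941 to 0.953 among the 3 Ms4a6 genes, and Ms4a1 had an r of −0.854 with Ms4a6c.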

How the data were processed

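RNA of FO B cells was measured by BRB-seq in 12 libraries, 3 per group. The authors deposited UMI counts per gene, which are not normalized. Per the labels and the methods of the study, they used UMI-tools 1.1.2, Trim Galore 0.6.7, HISAT2 2.2.1 (GRCm38) and featureCounts 2.0.1. Positions were taken from GENCODE M21, which holds all 22561 identifiers of the table, and the names of measured genes from the table.

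From the deposited counts, edgeR 4.0.16 (R 4.3.3) computed TMM factors, kept 9431 genes with filterByExpr by group, and fitted the 4 groups together (glmQLFit, glmQLFTest, 8 residual degrees of freedom). Calls needed a p below 0.1 after Benjamini-Hochberg adjustment over these genes and a log2 fold change above 1 or below −1. DESeq2 1.42.0, other scalings and filters, summed copies and each library left out were the alternatives.

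The members and the gene lists were chosen with earlier results of these data known. Named are the members, the other MS4A genes with Tmem176a and Tmem176b, the 3 genes most correlated with each member, called neighbours within 500 kb, and 2 to 6 abundant genes of a list. Outside this rule, Irf4, Adgre1, Pacsin1, Cox6a2, Gm5692, Gm19261, 4930526L06Rik and markers at 0 were named after their values were seen. Some genes under the rule are not reported here.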

Additional observations from a re-analysis of the deposited data

Results flagged for a closer look

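The interaction term of the edgeR fit passed the threshold for Ms4a4b, Ms4a4c, Ms4a6b and Ms4a6c, and is given as a description because the genes were chosen from these samples. The difference of the effects (with CpG minus without CpG, log2) was −2.34 for Ms4a4b, −1.93 for Ms4a4c, −2.58 for Ms4a6b and −2.38 for Ms4a6c. The fitted value for Ms4a6d also passed, at −5.33, but it rests on 0 counts in all 3 unstimulated libraries and depends on the prior count. Its difference with IFNα was at least 0.45 without CpG (a lower bound) and 0.28 (95% interval −0.37 to 0.93) with CpG. The bound lies within that interval, so a difference between them is not shown. For Ms4a6b and Ms4a6c the sign of the IFNα effect also differed, with all 3 libraries above unstimulated cells when IFNα was given alone and all 3 below CpG when it was given with CpG.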

How the results depend on the processing

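The number of members called was the same in every comparison under DESeq2, DESeq2 size factors, library size alone, no filter on low counts, libraries thinned to the total of the smallest, and each library left out in turn. A fit of only the groups compared called 4 members with IFNα and 4 with CpG, since Ms4a6d then did not pass the filter on low counts. Leaving out each library gave 5, 5, 6, 1, 4 and 5 members called in the 6 comparisons, each with the same lowest and highest number. With similar copies summed, 0 members were called when IFNα was added to CpG, since the Ms4a4 sum had a log2 fold change of 1.0, and the call of Ms4a4b with CpG (0.48) and those of Ms4a6c and Ms4a6d when CpG was added to IFNα (0.63) were lost, while Ms4a4b was called lower there (−1.42). At a log2 fold change over 2, the cutoff in the methods of the study, 4, 4, 5, 1, 1 and 4 members were called in the 6 comparisons, with the calls of Ms4a6c with IFNα (1.9), Ms4a4b with CpG (1.86), Ms4a4c with CpG + IFNα (1.36) and in the interaction (−1.93), and Ms4a4c (−1.49), Ms4a6c (1.28) and Ms4a6d (1.36) when CpG was added to IFNα, lost. The genes called over all those tested went to 251 with IFNα, 1677 with CpG, 1826 with CpG + IFNα, 165 when IFNα was added to CpG, 1698 when CpG was added to IFNα and 155 in the interaction.

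Changes of sign were seen in uncalled values: Ms4a1 with IFNα under library size alone (−0.01), Ms4a1 when IFNα was added to CpG without the filter (0.02) and over the libraries left out (−0.09 to 0.02), and Ms4a6d when IFNα was added to CpG with thinned counts (−0.05) or copies summed (−0.43). The correlations of Ms4a6c with Txn1 and Prdx1 were −0.287 and −0.0464 within the libraries with CpG. Beyond the summed copies and the higher threshold, where the construction sets the change, the cause was not tested. Deviations of same-numbered libraries had correlations from −0.0653 to 0.201 over 18 pairs, 5 of them over 0.1, and those of other numbers −0.2 to 0.0538 over 36 pairs. Of 12 libraries, 10 correlated best with their own number, a hint of pairing in the data that not every pair bears out and no label states. The replicate block gave 5, 5, 6, 1, 4 and 5 members called and changed no call. Marker sums over tested markers could not be given for T, NK and mast cells, of which none was tested. Depth limits Ms4a6d, at 4 to 26 counts in stimulated libraries, and Ms4a4b in unstimulated cells.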
